A study of Mus musculus with 4 samples.

Results

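Growth factors and receptor tyrosine kinases were followed here as 54 genes, 29 ligands and 25 receptors or co-receptors, taken by symbol from the 56350 genes of a count table and grouped into 10 families. They were read in EO771 cells, a mouse mammary carcinoma line of C57BL/6 origin grown in DMEM with serum. Total RNA was sequenced from 4 libraries. For 2 of them the cells had been given BML-210, a synthetic inhibitor of histone deacetylases, at 1.0 µM for 48 h. The other 2 are titled WT and labelled untreated, although the treatment field speaks of a vehicle. Whether the 2 libraries of a group came from separate cultures is not stated, so p-values measure the spread between these libraries, which may be technical. In the deposited table the columns of the libraries labelled BML-210 carry the letter V and those labelled untreated the letter D. The sources used here do not give what the letters stand for. They would also fit drug for D and vehicle for V, the reverse of the labels, which would turn every direction below, and no gene targeted by the design checks the labels. Every direction rests on the labels. The comparison asks which of these genes differed between the cells cultured with and without the compound.

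A receptor tyrosine kinase is a membrane receptor that usually pairs with a second receptor when its ligand binds, phosphorylates tyrosines on its partner and so recruits adaptor proteins that start the RAS-MAPK, PI3K and phospholipase C pathways. Several ligands, among them the EGF-like ones, are made as membrane proteins and released by sheddases. Others, such as GDNF and FGF21, need a co-receptor to bind. In the mammary gland and in its tumours the ErbB, FGF, IGF, PDGF and MET families carry signals for growth and movement within the epithelium and between it and the stroma.

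The libraries held 13167893 to 16534667 gene counts. Levels are CPM, counts scaled to the TMM-adjusted library size, and levels of different genes are compared as CPM per kilobase of exon. Mesenchymal markers were uneven: Vim was at 1710 and 1660 CPM in the libraries labelled untreated and BML-210. In the same order Sparc was at 334 and 310, Zeb2 at 225 and 338, Zeb1 at 184 and 211 and Twist1 at 26.7 and 28.9 CPM. But Snai2 and S100a4 were at 2.8 and 3.05 CPM in the untreated group, and Fn1 and Cdh2 had 2 counts each in all. The epithelial list rested almost wholly on Krt8 (46.4 and 30.7 CPM), with 9 of its 11 genes, Epcam and Krt18 included, too low to be tested. The labels give the line as mammary, and these defining epithelial markers, apart from Krt8, were at or near 0.

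Of the 54 genes, 37 had enough counts to be tested, 17 ligands and 20 receptors. Among them 10 were higher and 8 lower in the libraries labelled BML-210 at an adjusted p below 0.05 (edgeR quasi-likelihood test), and 19 did not pass. That is 48.6% of those tested, beside 46.4% of all 14455 tested genes (22.9% higher and 23.5% lower), so the share called was close to that of the table as a whole. A change of 2-fold or more was called for 4 of the 37, beside 6.68% of all tested genes. The libraries of the groups did not overlap for 29 of the 37 (78.4%), beside 71.3% of all tested genes. The median log2 fold change was 0.23 for tested ligands and 0.08 for tested receptors, against -0.002 for all tested genes. Of the 37, Fgf21 and Gfra1 entered the test through 1 group alone, the one in which they were higher, so that these medians and counts are descriptions.

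The 2 largest rises among genes called under every alternative setting were those of Fgf21 and Gdnf, so the bases before their start sites are shown first. Promoter sequences were found for 43 of the 54 genes in RefSeq (GRCm38.p6). The 250 bases upstream of each annotated start are printed 5′ to 3′ on the strand of the gene, with capitals for matches to any of 7 short motifs on either strand.
Fgf21, chr7:45615491-45615740, minus strand: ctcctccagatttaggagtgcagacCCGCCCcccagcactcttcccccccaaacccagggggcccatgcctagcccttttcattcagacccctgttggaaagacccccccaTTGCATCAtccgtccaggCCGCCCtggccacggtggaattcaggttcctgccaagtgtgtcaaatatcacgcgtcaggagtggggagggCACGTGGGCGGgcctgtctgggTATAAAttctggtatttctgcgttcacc
Gdnf, first start, chr15:7809798-7810047, plus strand: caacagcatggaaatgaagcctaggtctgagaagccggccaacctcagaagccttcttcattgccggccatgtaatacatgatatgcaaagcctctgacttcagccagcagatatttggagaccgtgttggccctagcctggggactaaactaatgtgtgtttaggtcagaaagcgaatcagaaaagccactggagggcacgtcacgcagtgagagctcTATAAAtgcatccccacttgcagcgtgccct
Gdnf, second start, chr15:7813477-7813726, plus strand: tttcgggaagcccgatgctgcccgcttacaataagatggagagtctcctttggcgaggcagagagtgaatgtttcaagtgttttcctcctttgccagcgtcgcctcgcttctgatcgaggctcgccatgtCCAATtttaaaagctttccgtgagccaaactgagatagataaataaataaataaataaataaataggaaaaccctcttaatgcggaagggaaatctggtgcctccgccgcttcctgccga
The Fgf21 window ends at the deposited end of its gene, where transcription of this minus-strand gene begins. The first Gdnf window lies upstream of the deposited gene, and the second lies inside it. No window overlaps an exon of the GENCODE M21 annotation.

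The motifs searched were TGATGNAA (the composite site of ATF4 with C/EBP factors), TGACGTCA (cyclic AMP response element, CRE), TGANTCA (AP-1 site), CACGTG (E-box), GGGCGG (GC box), the core promoter element TATAAA and the binding letters of the factor NF-Y, CCAAT. The Fgf21 window held the ATF4 composite on the opposite strand at positions -139 to -132 from the start, where it reads TTGCATCA. That motif was found in 3.4% of 32536 distinct upstream windows of this length. It also held an E-box at -50 to -45 (6.04%) that shares its last base with a GC box, 2 further GC boxes (33% of windows hold 1 or more) and the TATAAA element at -28 to -23 (12.3%). The first Gdnf window held only the TATAAA element, at -31 to -26, and the second only the NF-Y letters, at -120 to -116 (33.8%). CRE and AP-1 letters, present in 1.56% and 6.73% of windows, were in none of the 3. A match to these letters describes the sequence and does not show binding.

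Fgf21 encodes a hormone-like FGF that acts through FGF receptors with the co-receptor beta-klotho and is known as a gene of fasting and of the integrated stress response (ENSMUSG00000030827.5, chromosome 7, 45613886 to 45615490, mm10). It had 8 and 8 counts in the libraries labelled untreated and 52 and 56 in those labelled BML-210, or 0.487 and 0.583 against 3.94 and 4.0 CPM. Both libraries labelled BML-210 lay far above both others. The log2 fold change was 2.88 (± 0.36 SE; adjusted p = 8.55e-10 in edgeR), a 7.37-fold rise from a low level. It passed the filter on low counts only through the libraries labelled BML-210, where it is high. In edgeR without that filter the value was 2.89 (adjusted p = 1.79e-13). Among the ligands, its rank by CPM per kilobase went from 12 to 9 of 29. Klb, the gene of its co-receptor, had too few counts to be tested.

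Gdnf encodes a neurotrophic ligand of the RET receptor and its co-receptor GFRA1 (ENSMUSG00000022144.4, chromosome 15, 7810846 to 7837575). It measured 8.52 and 9.83 CPM in the libraries labelled untreated and 32.9 and 35.1 CPM in those labelled BML-210. The groups were well apart, with a log2 fold change of 1.90 (± 0.11 SE; adjusted p = 2.02e-22 in edgeR). The receptors for it were scarce: Ret had 16 counts over all 4 libraries (7 and 5 in the untreated, 3 and 1 in the others) and was not tested. Gfra1 measured 1.40 and 1.31 CPM against 0.378 and 1.07 CPM, a log2 fold change of -0.88 ± 0.45 that did not pass (edgeR adjusted p = 0.102), although it did without BML-210 replicate 2 (-1.82, adjusted p = 0.0298, with a range of 0.0298 to 0.651 over 11 alternatives). Artn, the gene of artemin, a relative of GDNF, did not pass either (0.34 ± 0.31, edgeR adjusted p = 0.392), at 1.40 and 2.62 CPM against 2.5 CPM in each library labelled BML-210. In this family the ligand gene rose, and neither receptor gene was called higher.

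**Figure D1:**
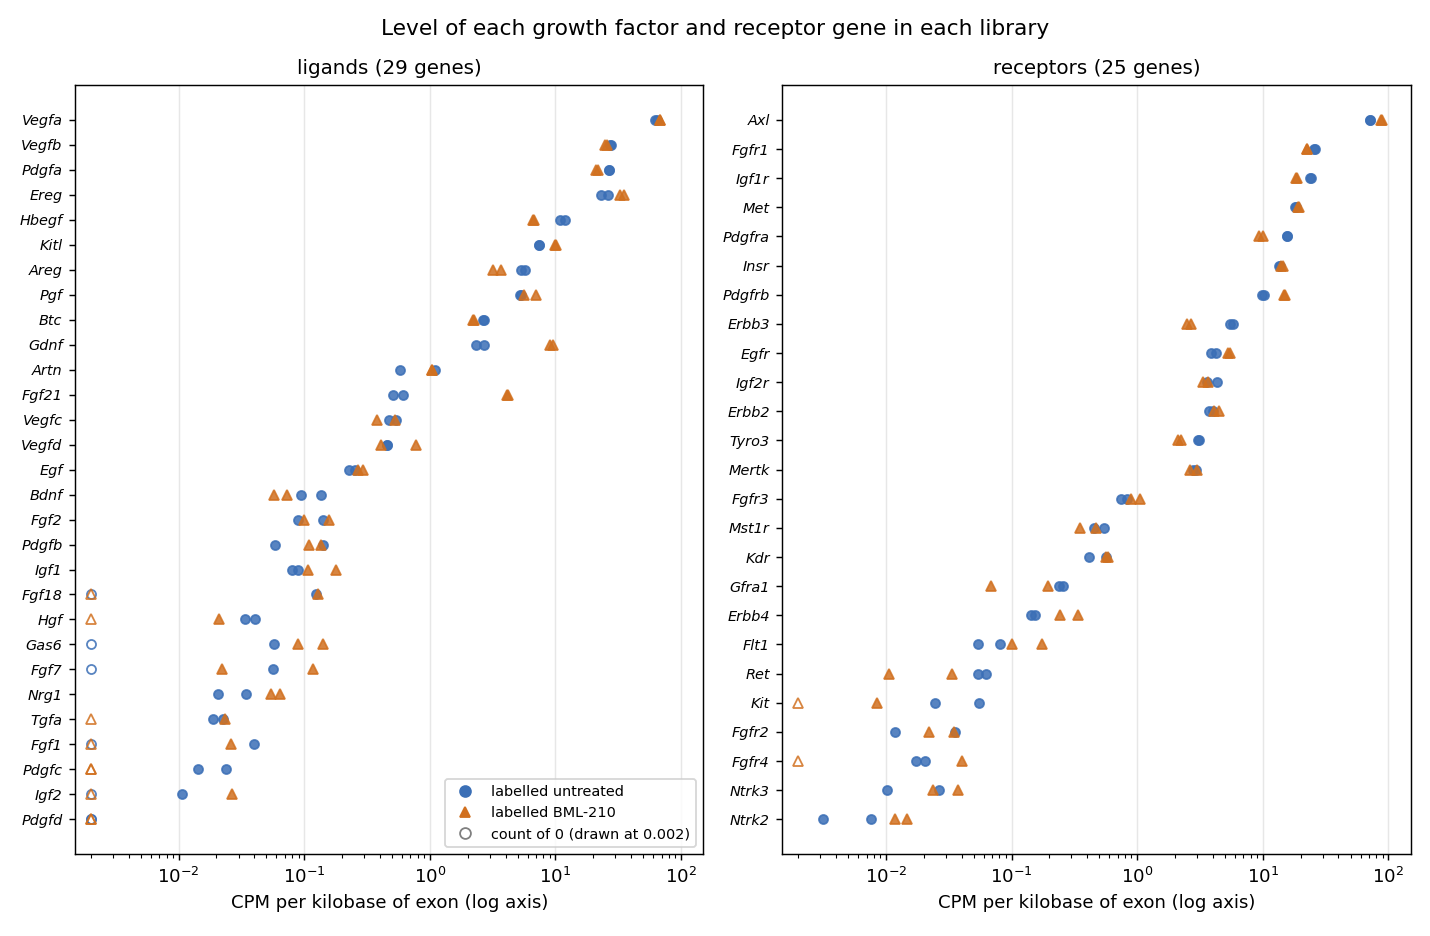
Level of each of the 29 ligand genes (left) and 25 receptor genes (right) in each library, as CPM per kilobase of exon on a log axis, ordered by the mean of the libraries labelled untreated; circles are libraries labelled untreated, triangles those labelled BML-210, and open marks a count of 0. Vegfa and Axl head the panels, Fgf21 and Gdnf show the widest gaps between groups among tested genes, and the lowest genes have counts too few to order.

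Levels spanned several orders of magnitude, as the plot of levels by library shows. Per kilobase of exon, the angiogenic factor gene Vegfa was the most abundant of the 29 ligands (63.3 and 67.8 CPM per kilobase in the untreated and BML-210 groups). It was ahead of Vegfb, Pdgfa and Ereg (27.4, 26.7 and 24.6 in the untreated group). These last 3 levels were close, and in the libraries labelled BML-210 the order was Ereg, Vegfb, Pdgfa (34.1, 25 and 21.4 CPM per kilobase). Axl was the most abundant of the 25 receptor genes (71.2 and 88.5), followed in the untreated group by Fgfr1 (25.8), Igf1r (23.9), Met (18.3) and Pdgfra (15.6). These ranks hold among the 54 genes only. Of the other growth factor and receptor genes below, Csf1 (108 and 128 CPM per kilobase) was above Vegfa, and Ddr2 (29.4 and 54) above Fgfr1. The summed level over all ligands was 650.4 and 657.7 CPM in the untreated libraries and 706.5 and 719.5 CPM in the others, and over all receptors 1750 and 1730 against 1670 and 1689 CPM. The exonic length used is that of all annotated exons of a gene joined, which understates the level of a gene whose expressed transcript is shorter.

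**Figure D2:**
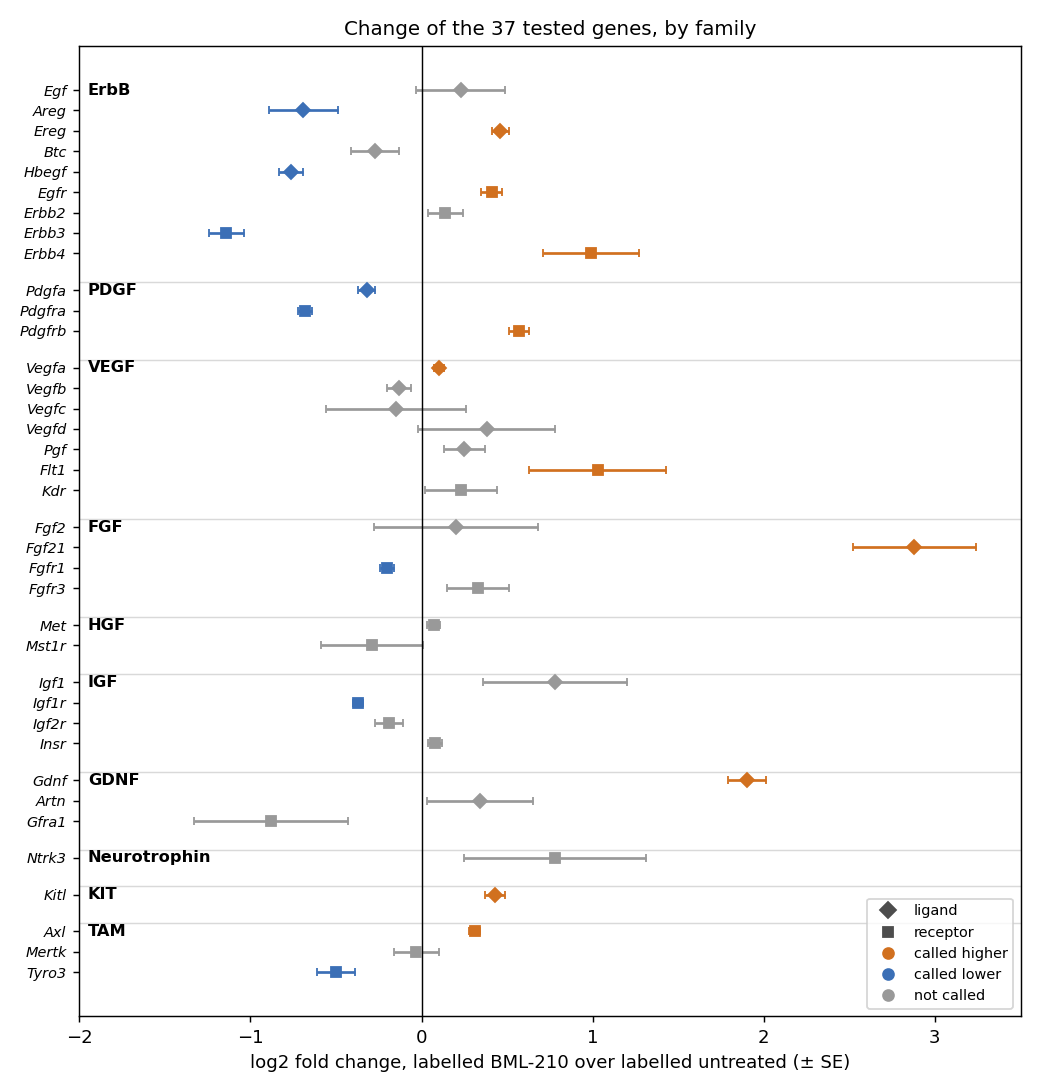
Log2 fold change of the 37 tested genes, labelled BML-210 over labelled untreated, with the standard error as bars; diamonds are ligands, squares receptors, and colour marks the call at an adjusted p below 0.05. Members of the ErbB and PDGF families lie on both sides of 0, and Fgf21 (2.88) and Gdnf (1.90) lie farthest to the right.

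The ErbB family was called in both directions, among ligands and receptors alike. ErbB receptors bind EGF-like ligands: EGF, TGFA and amphiregulin bind EGFR, epiregulin, betacellulin and HBEGF bind EGFR and ERBB4, and neuregulins bind ERBB3 and ERBB4. ERBB2 has no ligand of its own, and ERBB3 has little kinase activity and signals with a partner. Of 5 tested ligands 1 was higher and 2 lower, and of 4 receptors 2 were higher and 1 lower.

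Ereg, the gene of epiregulin (ENSMUSG00000029377.5, chromosome 5, 91074622 to 91093646), was the most abundant ErbB ligand. It measured 108 and 95.7 CPM in the untreated libraries and 136 and 146 CPM in those labelled BML-210, which lay above both others. Its log2 fold change was 0.46 (± 0.05 SE; adjusted p = 2.75e-12 in edgeR). An antisense gene, Gm19610, overlaps 3.42% of the Ereg exon bases and had 22, 23, 8 and 22 counts. Hbegf, the gene of heparin-binding EGF-like growth factor (ENSMUSG00000024486.6), fell from 52.9 and 57.2 CPM to 32.6 and 32.0 CPM, a log2 fold change of -0.76 ± 0.07 (edgeR adjusted p = 3.64e-14). Areg, the gene of amphiregulin, a ligand known for its part in mammary duct growth (ENSMUSG00000029378.5, chromosome 5, 91139599 to 91148432), fell from 6.94 and 6.41 CPM to 4.47 and 3.85 CPM (-0.69 ± 0.20, edgeR adjusted p = 0.00284). With DESeq2 the Areg call just missed the threshold (-0.68, adjusted p = 0.0521, with a range of 0.00218 to 0.0521 over 11 alternatives). Btc, the gene of betacellulin, had 12.3 and 11.9 CPM against 9.99 and 10.1 CPM and did not pass (-0.27 ± 0.14, edgeR adjusted p = 0.0998). Egf had 2.56 and 2.84 CPM against 3.33 and 3.0 CPM (0.23 ± 0.26, adjusted p = 0.496), and Tgfa and Nrg1 had 6 and 26 counts in all and were not tested.

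Ereg and Areg are neighbours on the plus strand of chromosome 5, 46 kb apart with no other annotated gene between them, and they were called in opposite directions. Btc lies 209 kb beyond Areg on the other strand, with 2 other genes in between. Pdgfra, Kit and Kdr form a second cluster of members on that chromosome, with gaps of 377 kb and 276 kb. There Pdgfra fell (-0.68), Kdr did not pass (0.23) and Kit was too low to be tested. No other members lie within 2 Mb of each other.

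Among the ErbB receptors, Erbb3 (ENSMUSG00000018166.8, chromosome 10, 128567523 to 128589652) fell most. It measured 35.1 and 33.3 CPM in the untreated libraries against 14.9 and 16.2 CPM, with a log2 fold change of -1.14 (± 0.10 SE; adjusted p = 1.34e-15 in edgeR). Its level in the libraries labelled BML-210 was 2.2-fold lower, and the groups were far apart. Egfr (ENSMUSG00000020122.16, chromosome 11, 16752203 to 16918158) was higher, from 44.1 and 48.0 to 62.7 and 59.4 CPM (0.41 ± 0.06, edgeR adjusted p = 1.72e-07). Erbb4 rose from a low 1.76 and 1.89 to 3.03 and 4.21 CPM (0.99 ± 0.28, edgeR adjusted p = 0.00266), a call lost without BML-210 replicate 2 (0.73, adjusted p = 0.102, with a range of 0.00111 to 0.102). Erbb2, at 20.9 and 19.4 against 23.3 and 21.2 CPM, did not pass (0.14 ± 0.10, edgeR adjusted p = 0.271). Per kilobase, Erbb3 was the most abundant ErbB receptor gene in the untreated group (5.69 CPM per kilobase, beside 4.06 for Egfr and 3.87 for Erbb2). In the libraries labelled BML-210 the order was Egfr (5.39), Erbb2 (4.27), Erbb3 (2.59). In CPM Egfr was above Erbb3 in every library, so the lead of Erbb3 in the untreated group rests on the joined exonic lengths used. These are 11326 bases for Egfr and 6016 for Erbb3.

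In the PDGF family the receptor genes were called in opposite directions. PDGFRA and PDGFRB are receptors of mesenchymal cells: PDGFA binds the first, and PDGFB binds both. Pdgfra (ENSMUSG00000029231.15, chromosome 5, 75152292 to 75198215) fell from 155 and 157 to 94.3 and 101 CPM, a log2 fold change of -0.68 (± 0.04 SE; adjusted p = 8.85e-20 in edgeR). Pdgfrb (ENSMUSG00000024620.11) rose from 54.2 and 55.6 to 81.4 and 81.1 CPM (0.57 ± 0.06, edgeR adjusted p = 5.52e-13). Both pairs of libraries were clearly apart. Per kilobase, Pdgfra was above Pdgfrb in the untreated group (15.6 against 10.0) and below it in the other (9.73 against 14.8). In CPM Pdgfra stayed above Pdgfrb in every library, so this change of order rests on the joined exonic lengths used, 10024 and 5478 bases. The ligand gene Pdgfa fell from 83.1 and 83.5 to 65.9 and 67.5 CPM (-0.32 ± 0.05, edgeR adjusted p = 1.15e-06). An antisense gene, 6330403L08Rik, overlaps 26.1% of its exon bases and had 274, 225, 187 and 185 counts of its own, and the sources used here do not give how shared reads were assigned. Pdgfb had 26 counts in all, Pdgfc 3 and Pdgfd 0, and none of them was tested. Of 9 fibroblast markers Lum, Pdpn and Thy1 had no count, 2 were tested and 1 of these, Col3a1, was higher (1.55). The list summed to 22.0 and 27.3 CPM in the untreated libraries and 26.1 and 25.2 in the others. Most of that sum was Col1a1, at a mean of 22.9 and 22 CPM in the untreated and BML-210 groups. Of 8 pericyte and smooth muscle markers 5 were tested, Acta2 was higher (1.07), Mcam (-1.40) and Rgs5 (-3.83) were lower, and the list summed to 45.2 and 43.8 against 56.2 and 55.4 CPM. The part of such cells in the PDGF receptor values was not tested, and in bulk RNA fewer cells of a type and less RNA per cell cannot be told apart.

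Vegfa and Vegfb were among the most abundant of the 29 ligand genes, while Vegfc and Vegfd (0.504 and 0.454 CPM per kilobase in the untreated group) were as scarce as the receptor gene Kdr (0.489). Of these ligands, VEGFA acts on vessel cells through both FLT1 and KDR. Flt4, a further VEGF receptor gene listed with the other growth factor and receptor genes below, had 15 counts in all and was not tested. Vegfa (ENSMUSG00000023951.17, chromosome 17, 46016993 to 46032369) measured 266 and 277 CPM against 290 and 291 CPM. Its log2 fold change of 0.10 ± 0.03 passed (edgeR adjusted p = 0.0125), but the call ended with DESeq2 (adjusted p = 0.0512) and without untreated replicate 1 (0.156), BML-210 replicate 1 (0.0771) or BML-210 replicate 2 (0.102), with a range of 0.00224 to 0.156. Vegfb (-0.13 ± 0.07, edgeR adjusted p = 0.131), Vegfc (-0.15 ± 0.41, adjusted p = 0.79) and Vegfd (0.38 ± 0.40, adjusted p = 0.457) did not pass. Pgf, the gene of placental growth factor, had 15.3 and 15.4 CPM against 20.2 and 16.2 CPM and did not pass (0.25 ± 0.12, edgeR adjusted p = 0.0756), but did without BML-210 replicate 2 (0.40, adjusted p = 0.0116, with a range of 0.0116 to 0.71). The receptor gene Flt1 had 12 and 15 counts against 31 and 19, a log2 fold change of 1.03 ± 0.40 (edgeR adjusted p = 0.028). That call ended with DESeq2 (adjusted p = 0.19) and without untreated replicate 1 (0.257) or BML-210 replicate 1 (0.439, where the value was 0.59), with a range of 0.0115 to 0.439. Kdr, at 5.11 and 3.71 against 5.30 and 5.14 CPM, did not pass (0.23 ± 0.21, edgeR adjusted p = 0.399). Of 8 endothelial markers 5 were tested, Erg was lower (-1.97) and no other passed, and Emcn had no count. The list summed to 42.4 and 41.6 CPM in the untreated libraries and 38.5 and 37.3 in the others. Most of that sum was Egfl7, at a mean of 34.6 and 31.8 CPM in the untreated and BML-210 groups. The part of endothelial cells in the Flt1 value was not tested.

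Among the 54 genes the FGF ligands were barely expressed, Fgf21 included in the untreated libraries. Fgfr1 ranked second per kilobase among the 25 receptor genes. Fgf11, an FGF gene outside the 54, measured 11.8 and 11.5 CPM in the untreated and BML-210 groups and did not pass (-0.04, edgeR adjusted p = 0.836). Fgfr1, the receptor that FGF2 and, with beta-klotho, FGF21 bind (ENSMUSG00000031565.18, chromosome 8, 25513654 to 25575718), fell slightly, from 257 and 252 to 222 and 221 CPM (-0.20 ± 0.04 SE, edgeR adjusted p = 2.65e-06). Fgfr3 did not pass (0.33 ± 0.18, adjusted p = 0.132), nor did Fgf2 (0.20 ± 0.48, adjusted p = 0.767), which had 47 counts in all. Fgf1, Fgf7 and Fgf18 had 5, 9 and 4 counts in all, and the receptor genes Fgfr2 and Fgfr4 had 15 and 4.

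In the IGF family Igf1r was the only one of 4 tested genes to be called. The IGF1 receptor carries the growth signal of IGF1 and IGF2, INSR that of insulin, and IGF2R clears IGF2 and sorts lysosomal enzymes without a kinase. Igf1r (ENSMUSG00000005533.10, chromosome 7, 67952827 to 68233668) fell from 405 and 398 to 309 and 312 CPM, a log2 fold change of -0.37 (± 0.03 SE; adjusted p = 1.98e-15 in edgeR). Insr had 186 and 188 CPM against 193 and 201 CPM and did not pass (0.08 ± 0.04, edgeR adjusted p = 0.0993), although it did with library size alone (0.09, adjusted p = 0.045, with a range of 0.045 to 0.541). Igf2r, at 40.4 and 33.2 against 33.9 and 31.0 CPM, was at the edge of the threshold (-0.19 ± 0.08, edgeR adjusted p = 0.0508). It passed with the replicate block (0.0424), with genes kept at 1 CPM or more on average (0.0387) and without untreated replicate 2 (-0.32, 0.00206) or BML-210 replicate 1 (0.0273), with a range of 0.00206 to 0.803. Igf1 did not pass (0.78 ± 0.42, adjusted p = 0.127) with 64 counts in all, and Igf2 had 3 counts.

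TAM receptors bind GAS6, and TYRO3 and MERTK, but not AXL, also bind protein S. The TAM receptors take part in the clearance of dying cells and in tumour cell movement, and their genes were called in different directions. Axl, per kilobase the most abundant of the 25 receptor genes (ENSMUSG00000002602.16, chromosome 7, 25757273 to 25788705), rose from 360 and 357 to 440 and 450 CPM, a log2 fold change of 0.31 (± 0.03 SE; adjusted p = 3.70e-13 in edgeR). Tyro3 (ENSMUSG00000027298.17) fell from 18.9 and 19.4 to 13.9 and 13.1 CPM (-0.50 ± 0.11, edgeR adjusted p = 0.000194). Mertk, at 12.8 and 12 against 12.9 and 11.5 CPM, did not pass (-0.03 ± 0.13, adjusted p = 0.857). The ligand gene Gas6 had 10 counts in all. Pros1, the gene of protein S, is listed with the other growth factor and receptor genes below. It fell from 5.6 and 4.52 to 2.88 and 3.78 CPM (-0.61 ± 0.23, edgeR adjusted p = 0.0227). MERTK is also a macrophage receptor. Of 12 macrophage and myeloid markers 5 were tested and 1, Adgre1, was lower (-2.98), C1qc had no count, and the list summed to 16.5 and 13.1 CPM in the untreated libraries and 11.2 and 12.8 in the others. Their part in the TAM receptor values was not tested.

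Kitl, the gene of stem cell factor (ENSMUSG00000019966.18, chromosome 10, 100015630 to 100100416), rose from 44.1 and 43.8 to 59.1 and 59.6 CPM (0.43 ± 0.06 SE, edgeR adjusted p = 4.15e-08). Its receptor gene Kit had 8 and 3 counts in the untreated libraries and 1 and 0 in the others and was not tested. Met, the gene of the HGF receptor, measured 142 and 139 against 148 and 147 CPM and did not pass (0.07 ± 0.04, edgeR adjusted p = 0.157), and Mst1r, its relative, did not either (-0.29 ± 0.30, adjusted p = 0.457). Hgf had 10 counts in all. Of the 54 genes' neurotrophin family only Ntrk3 was tested and it did not pass (0.78 ± 0.53, edgeR adjusted p = 0.232), while Bdnf and Ntrk2 had 33 and 10 counts. None of the 17 untested genes passed in edgeR without a filter on low counts, where 1, Kit, had an unadjusted p below 0.05 (adjusted p = 0.0942). DESeq2 called none of them, gave an adjusted p for 3 and had 0 at an unadjusted p below 0.05. In 1 library 3 counts correspond to 0.183 to 0.227 CPM, a limit that covers counting error alone, since reads without molecular identifiers are not independent molecules.

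**Figure D3:**
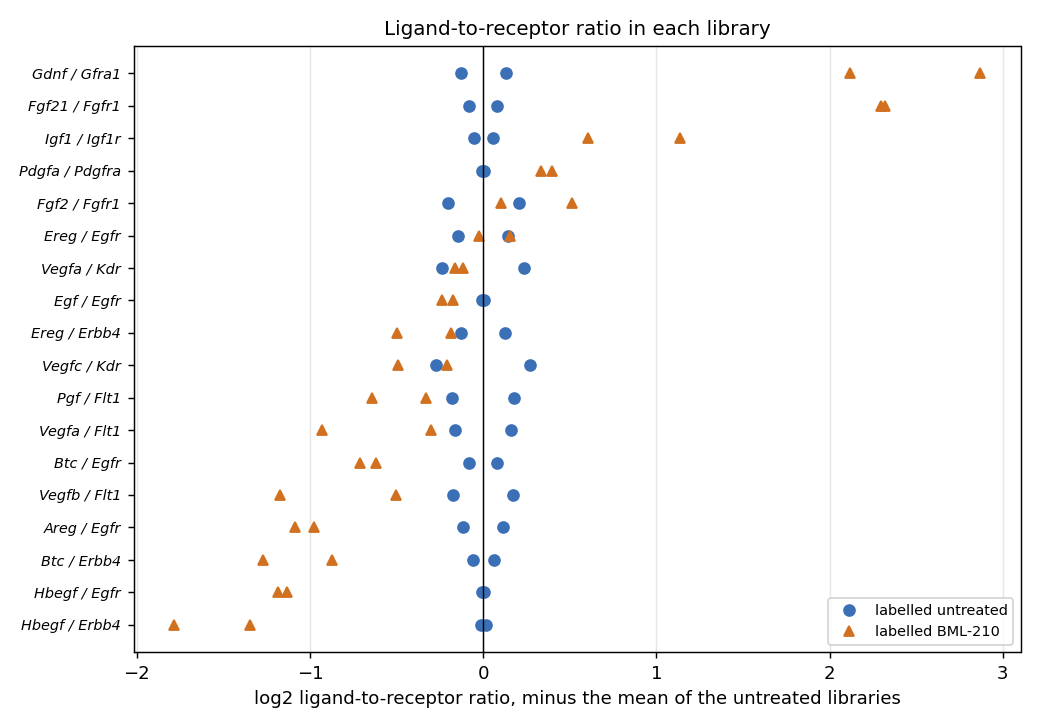
Log2 ratio of ligand to receptor CPM in each library for the 18 pairs with both genes tested, with the mean of the untreated libraries set to 0; circles are libraries labelled untreated and triangles those labelled BML-210. Gdnf to Gfra1 and Fgf21 to Fgfr1 lie over 2 to the right, and the ratios of Hbegf to its receptors lie over 1 to the left. Gfra1 and Fgf21 entered the test through 1 group alone, the one in which they were higher.

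Ligands were set against receptors within each library as the log2 ratio of their CPM, each raised by 0.5, for 18 of 39 ligand and receptor pairs, those with both genes tested. The ratio was higher without overlap in the libraries labelled BML-210 for 4 pairs, lower without overlap for 10, and overlapping for 4. In each of the 10 the receptor gene was Egfr, Erbb4 or Flt1, all called higher, so the same few receptors are counted repeatedly. The calls of Erbb4 and Flt1 did not hold under every alternative. Taken singly, 71.3% of all tested genes did not overlap between the groups, and no share was computed for pairs of other genes. With 2 libraries against 2 the smallest exact two-sided permutation p is 0.33, so these are descriptions, and pairs that share a gene are not separate observations. For Hbegf and Egfr the log2 ratio went from 0.26 and 0.25 to -0.93 and -0.88. These ratios do not correct for gene length, so only their change between libraries is read. Per kilobase of exon Hbegf was above Egfr in all 4 libraries, at 10.9 and 11.8 against 3.89 and 4.24 CPM per kilobase in the untreated libraries and 6.75 and 6.63 against 5.53 and 5.25 in the others. For Areg and Egfr it went from -2.58 and -2.81 to -3.67 and -3.78. For Ereg and Egfr, which both rose, it stayed in the same range, 1.28 and 0.99 against 1.11 and 1.29. The ratio of Gdnf to Gfra1 went from 2.25 and 2.51 to 5.25 and 4.50, and that of Fgf21 to Fgfr1 from -8.03 and -7.87 to -5.65 and -5.63. Each of these pairs holds a gene that entered the test through 1 group alone, Gfra1 through the untreated and Fgf21 through the BML-210 group. Such entry favours a rise of these ratios, and Gfra1 had only 5 and 15 counts in the libraries labelled BML-210. The Fgf21 difference was 2.31, and 2.88 with 0.1 CPM added instead of 0.5. For Pdgfa and Pdgfra, which both fell, the ratio was -0.90 and -0.91 against -0.51 and -0.57. In 4 pairs 1 gene was called higher and its partner lower: Areg and Hbegf fell where Egfr rose, Hbegf fell where Erbb4 rose, and Fgf21 rose where Fgfr1 fell. Taken singly, 22.9% of all tested genes were higher and 23.5% lower, and no share of such pairs was computed for other genes. The ErbB pairs among the 4 share Egfr or Hbegf, and the Areg and Erbb4 calls did not hold under every alternative.

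**Figure D4:**
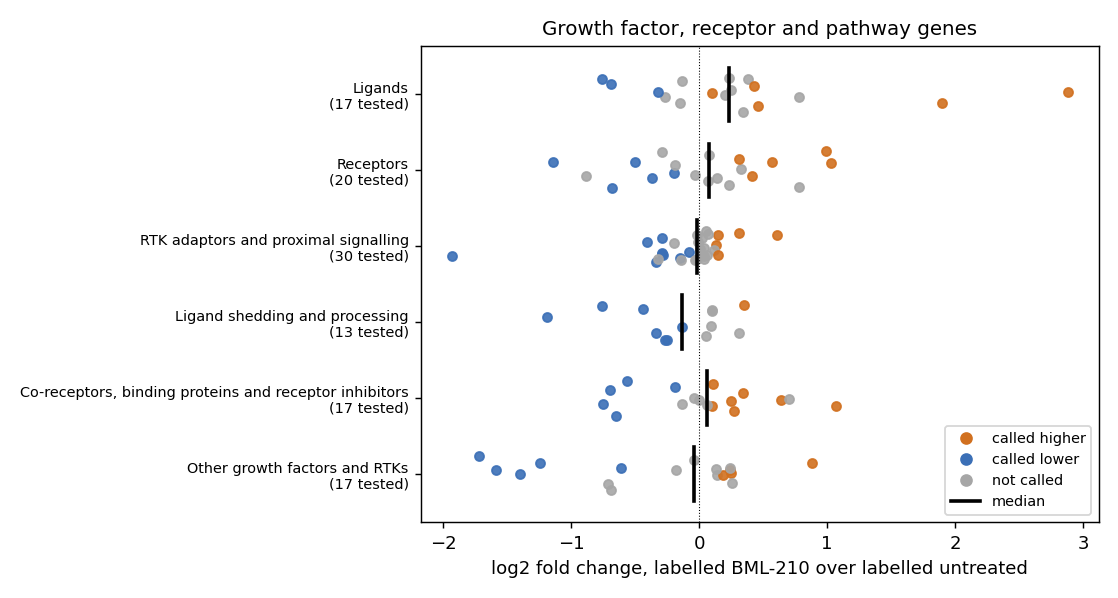
Log2 fold change of tested ligands, receptors and 4 lists of related pathway genes, labelled BML-210 over labelled untreated; each point is a gene, colour marks the call, and the black bar is the median. Of 13 tested genes linked to ligand processing or release, 7 are called lower and 1 higher, and the other lists lie on both sides of 0.

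The other genes of these pathways, in 4 lists, were called in both directions. Among 13 tested genes linked to ligand processing or release, 7 were lower and 1 higher (median -0.13, beside -0.002 for all genes), 61.5% called beside 46.4% of all tested genes. The 13 are proteases and their regulators, and include the protease inhibitor gene Spint2 (0.05, not called). Plau, the gene of urokinase, which can cleave pro-HGF, fell from 74.5 ± 0.460 to 32.7 ± 1.39 CPM (SD, n = 2), with a log2 fold change of -1.19 (± 0.06 SE; adjusted p = 1.62e-23 in edgeR). The plasminogen activator gene Plat (-0.76), the metalloproteinase gene Adam9 (-0.44), the proprotein convertase gene Furin (-0.34) and Rhbdf2 (-0.27), whose product brings the sheddase ADAM17 to the cell surface, fell as well, and the convertase gene Pcsk7 rose (0.35). Named after their values were seen, the sheddase genes Adam10 (-0.25) and Adam17 (-0.13) were lower too. The call of Pcsk7 did not hold with DESeq2 or without untreated replicate 1, BML-210 replicate 1 or BML-210 replicate 2, where 0 of the 13 were higher.

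Of 30 tested genes of adaptors and proximal signalling, 5 were higher and 9 lower (median -0.01), 46.7% called beside 46.4% of all tested genes. The exchange factor gene Sos2 rose from 94.1 ± 0.789 to 144 ± 1.59 CPM (SD, n = 2), with a log2 fold change of 0.61 (± 0.04 SE; adjusted p = 8.49e-18 in edgeR), and the adaptor gene Nck1 rose by 0.31. The adaptor genes Grb2 (-0.28) and Gab2 (-0.29), the phospholipase gene Plcg1 (-0.29) and the PI3K catalytic subunit gene Pik3cb (-0.41) fell. The count of higher genes in this list was 3 with no filter, with DESeq2 and without untreated replicate 2, BML-210 replicate 1 or BML-210 replicate 2.

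Of 17 tested co-receptors, binding proteins and receptor inhibitors, 7 were higher and 5 lower (median 0.06), 70.6% called beside 46.4% of all tested genes. Igfbp4, the gene of an IGF-binding protein, rose from 248 ± 7.21 to 386 ± 3.10 CPM (SD, n = 2), with a log2 fold change of 0.64 (± 0.03 SE; adjusted p = 1.60e-24 in edgeR), while Igfbp6, the gene of another, fell (-0.56). Lrig1, the gene of an inhibitor that promotes loss of ErbB receptors, rose by 0.34. Fgfrl1, the gene of an FGF receptor without a kinase (-0.70), and the heparan sulfate proteoglycan gene Gpc1 (-0.19) fell.

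Of 17 other growth factor and receptor genes tested, 4 were higher and 5 lower (median -0.04), 52.9% called beside 46.4% of all tested genes, and 3 were lower without untreated replicate 1. Ddr2, the gene of a collagen receptor kinase, rose from 272 ± 1.66 to 501 ± 5.39 CPM (SD, n = 2), with a log2 fold change of 0.88 (± 0.03 SE; adjusted p = 5.00e-32 in edgeR), and the macrophage growth factor gene Csf1 (0.25) and the Wnt co-receptor gene Ryk (0.24) rose. The neuregulin gene Nrg2 fell by 1.24 on the log2 scale, to 1.62 CPM.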

How the data were processed

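The authors deposited raw read counts per gene for 4 libraries, per the file headers, with the exonic length of each gene in bases. STAR 2.5 and featureCounts (Subread 1.5.1) are named in the submitters' processing notes, with bcl2fastq, edgeR 3.20.8 and the mm10 build. The sources used here give neither the annotation nor the settings for strand, multi-mapping or overlaps.

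Counts were tested in R 4.3.3 with edgeR 4.0.16: filterByExpr at its defaults (14455 of 56350 genes), TMM, glmQLFit with robust=TRUE and glmQLFTest with the group as the only term (2 residual degrees of freedom) and Benjamini-Hochberg adjustment over all tested genes. The standard error is the log2 fold change over the root of F, an approximation. Alternatives were RLE factors, library size alone, no filter, a mean CPM of 1 or more, the replicate block, each library left out (the lone library of a group is then assumed to vary like the other group), DESeq2 1.42.0 and limma-voom 3.58.1. The edgeR step was tested on simulated data. The 2 libraries of each group differed beyond sampling noise (chi-square per degree of freedom 2.7 and 1.76), and were kept as separate libraries. This does not show separate cultures, and the common biological coefficient of variation was 2.49 percent. The genes, families, pairs and lists were chosen with earlier results of these data known. By rule, every member is accounted for, and each list names its 5 called genes with the smallest adjusted p and 2 against its majority. Lists of other cell types give summed CPM: lymphocyte markers summed to 0.51 to 0.681 CPM with none tested, adipocyte markers to 20.4 to 23.2 CPM, nearly all Fabp4, and Schwann and neural markers to 8.56 to 12 CPM with none of 2 tested called. Of 9 mesenchymal markers 7 were tested, with 2 higher, Zeb1 (0.20) and Zeb2 (0.59), and 1 lower, Sparc (-0.11). Some genes of the pathway lists are not reported here by name.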

Additional observations from a re-analysis of the deposited data

How the results depend on the processing

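Of the 18 genes called, 14 kept their direction and call under all 11 alternatives, and Areg, Erbb4, Vegfa and Flt1 lost it in 1 or more, always with the same sign. Of the 19 not called, Pgf, Igf2r, Insr and Gfra1 passed in 1 or more. Values of genes not called changed sign when a library was left out, and over the alternatives Vegfc ran from -0.40 to 0.07, Vegfd from -0.15 to 0.76, Fgf2 from -0.17 to 0.52, Artn from -0.07 to 0.83 and Mertk from -0.12 to 0.05. The count of members higher ran from 8 to 11 and of members lower from 7 to 9. With the replicate block the counts were 10 higher and 9 lower, and 6847 of all genes against 6714. The labels do not say that equal numbers mark a shared culture or day, and the deviations of same-numbered libraries had a correlation of 0.0129 across genes, so the numbers were not taken as pairs. The number of all genes called ran from 4669 (DESeq2) to 6847, and of genes called over the 4 pathway lists from 32 to 44 against 43. No alternative moved the median log2 fold change of all genes by over 0.1 (-0.012 to 0.027). The number of pairs whose ratio did not overlap was 14 with each prior and with library size alone. Why single calls changed was not tested. Depth limited the genes with few counts: Vegfc, Vegfd, Flt1, Fgf2, Igf1, Gfra1 and Ntrk3 had standard errors of 0.40 to 0.53 on the log2 scale.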
